A study of Mus musculus with 9 samples.

Results

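The 10 genes Cacna1a, Cacna1b, Cacna1c, Cacna1d, Cacna1e, Cacna1f, Cacna1g, Cacna1h, Cacna1i and Cacna1s encode the pore-forming alpha1 subunits of the voltage-gated calcium channels of the mouse. They were chosen by name from the 22609 genes counted, and all 10 were present in the count tables. Messenger RNA was sequenced from male C57 mice that were 8 to 12 weeks old, in 3 tissues: L3-L5 dorsal root ganglia (DRG), which hold the cell bodies of sensory neurons, the lumbar spinal cord, and hind paw skin taken by punch biopsy. Every library came from mice that had received 2 intraperitoneal injections of the chemotherapy drug paclitaxel (PTX, 2 mg/kg each) and an LTβR antagonist, 15 µg given both into the hind paw and intrathecally, and tissue was taken 6 days after the last PTX dose. The sample titles place the antagonist on days 1 and 4, and the series text places it between the PTX doses and 1 day after them. There were 3 libraries per tissue and 9 in all. Because all 9 share the same drug and antagonist, the contrasts are between tissues of treated mice, and no treatment effect was tested; libraries of IgG-injected controls were not analysed here. Whether the 3 libraries per tissue stem from different animals is not stated in the labels. The p-values therefore measure the spread between these libraries only, which may be technical.

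Each alpha1 subunit is a long protein of 4 homologous repeats that folds around a calcium-selective pore, opens when the membrane depolarizes, and sets the name of the channel. The Cav1 genes (Cacna1s, Cacna1c, Cacna1d and Cacna1f) encode the L-type channels of muscle, heart, neurons and retina. The Cav2 genes (Cacna1a for P/Q-type, Cacna1b for N-type and Cacna1e for R-type) encode channels that trigger transmitter release at nerve terminals, and the N-type channel is the target of the spinal analgesic ziconotide. The Cav3 genes (Cacna1g, Cacna1h and Cacna1i) encode low-voltage-activated T-type channels, of which the Cacna1h product is known for shaping the excitability of sensory neurons.

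The split between the subfamilies can be read from the pore. The lines below give 27 coding bases around the selectivity codon of the third repeat, read from the longest open reading frame of GENCODE M21 transcripts, with that codon in capitals. They are shown because they set the Cav3 genes apart from the other members.
Cacna1s: gtctccaccttcGAGggttggcctcag
Cacna1c: gtctccaccttcGAAgggtggccagag
Cacna1d: gtctcaacttttGAGggctggcccgcg
Cacna1f: gtctctacctttGAAggctggcctgcg
Cacna1a: gtgtccacaggaGAGggctggccacag
Cacna1b: gtgtccacgggaGAGgggtggcccatg
Cacna1e: gtctctacagggGAAggatggcctcag
Cacna1g: ctggcctccaagGATggctgggttgac
Cacna1h: ctgtcatccaagGATggctgggtaaac
Cacna1i: ttggcctccaagGATggctgggtgaac
All 7 Cav1 and Cav2 genes carry a glutamate codon (GAG or GAA) at this place, and the 3 Cav3 genes carry the aspartate codon GAT. The genes lie on chromosomes 8, 2, 6, 14, 1, X, 11, 17, 15 and 1, taken in order from Cacna1a to Cacna1i and then Cacna1s.

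The Cav3 genes are also the members most alike in sequence, which bears on how well short reads can be assigned. The longest stretch shared by Cacna1g and Cacna1i, 68 coding bases, exceeds the read length of 50 bases.
Cacna1g and Cacna1i: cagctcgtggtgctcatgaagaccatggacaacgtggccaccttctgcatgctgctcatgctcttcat
Cacna1h and Cacna1i share at most 50 bases, and Cacna1g and Cacna1h at most 41. Of the 50-base windows of each transcript, 19 of 8334 in Cacna1g, 20 of 9732 in Cacna1i and 1 of 8181 in Cacna1h also occur in another gene of the family, so few reads of these genes can be ambiguous between them. Exons of Cacna1d overlap Chdh, and exons of Cacna1h overlap Tpsg1, on the opposite strand. Exons of Cacna1s overlap Gm37759 and exons of Cacna1a overlap Gm16183, also on the opposite strand, and neither was among the genes counted. The parts shared are 16.43% of the windows of Cacna1s (1019 of 6202) and 1.68% of those of Cacna1a (132 of 7877). The strand setting of the counting is not given in the sources used here, so reads over these stretches are uncertain. Chdh had 18.3 to 76.6 CPM over the 9 libraries, and the shared part is 6.23% of the windows of Cacna1d; Tpsg1 stayed at 0 to 1.00 CPM.

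Reads assigned to genes numbered 15537545 to 23229724 per library, and reads of the family amounted to 343 to 412 CPM among DRG libraries, 408 to 565 CPM among spinal cord libraries and 238 to 341 CPM among paw libraries (without scaling). Levels of single genes are given as CPM (reads relative to the library total) after scaling by the trimmed mean of M-values (TMM). The tissue labels were checked against marker genes. Scn10a, the sodium channel of pain-sensing neurons, had 789 to 1303 CPM in DRG and at most 2.53 CPM elsewhere. Of the 14 sensory neuron markers in its list, 12 were called higher and 1 lower in DRG than in spinal cord. In paw, 13 were called lower than in DRG and 1, Pvalb, higher. Ntrk3 ran against the list, with 28.6 to 37.9 CPM in DRG and 96.8 to 113 CPM in the cord. Slc32a1, the GABA and glycine vesicle transporter, had 216 to 292 CPM in spinal cord and at most 0.766 CPM elsewhere, and the keratinocyte gene Krt5 had 2109 to 2533 CPM in paw and at most 1.19 CPM elsewhere. Of 12 spinal neuron markers, 10 were called lower and 1 higher in DRG than in spinal cord, and 10 lower in paw than in spinal cord. Tlx3 ran against that list, with 33.7 to 44.7 CPM in DRG and 1.89 to 3.13 CPM in the cord. All 8 keratinocyte markers were called higher in paw than in either other tissue. The shares called over all genes are given with the members below. The summed level of 10 genes common to all neurons was 12530 to 15170 CPM in DRG, 7258 to 9254 CPM in the cord and only 248 to 275 CPM in the paw. Mtap2, a dendritic microtubule protein, made up 163 to 206 CPM of the paw sum and was the 1 gene of the 10 called higher in paw than in DRG (log2 fold change 0.54 ± 0.11, adjusted p = 0.000578 with edgeR). The other 9 were lower in paw and summed to 65.7 to 84.9 CPM there. Skeletal muscle genes were abundant in paw and uneven among the DRG libraries, as given with Cacna1s below. In whole tissue, fewer cells of a type and less RNA per cell cannot be told apart.

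Each tissue had its own leading subfamily of pore subunits, while Cacna1a led as a single gene in both DRG and spinal cord. To compare genes with each other, CPM was divided by exon length in kilobases, and each member was expressed as a share of the family. The Cav2 genes held 59.7 ± 4.59% of the family in DRG, the Cav3 genes held 52.1 ± 0.857% in spinal cord, and the Cav1 genes held 90.8 ± 1.17% in paw (SD, n = 3). The family total per kilobase was similar in size, at 46.0 ± 3.43 CPM per kilobase in DRG, 52.5 ± 8.26 in the cord and 42.2 ± 6.67 in the paw. The tissues thus differed in which members made up the sum more than in the sum itself. The paw total rested on Cacna1s, which gave 36.9 ± 6.55 CPM per kilobase there, against 1.02 in DRG and 0.146 in the cord. The Cav2 sum was 0.888 CPM per kilobase in paw, 27.6 in DRG and 20.4 in the cord. The Cav3 sum was 2.94 in paw, 13.3 in DRG and 27.3 in the cord.

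**Figure D1:**
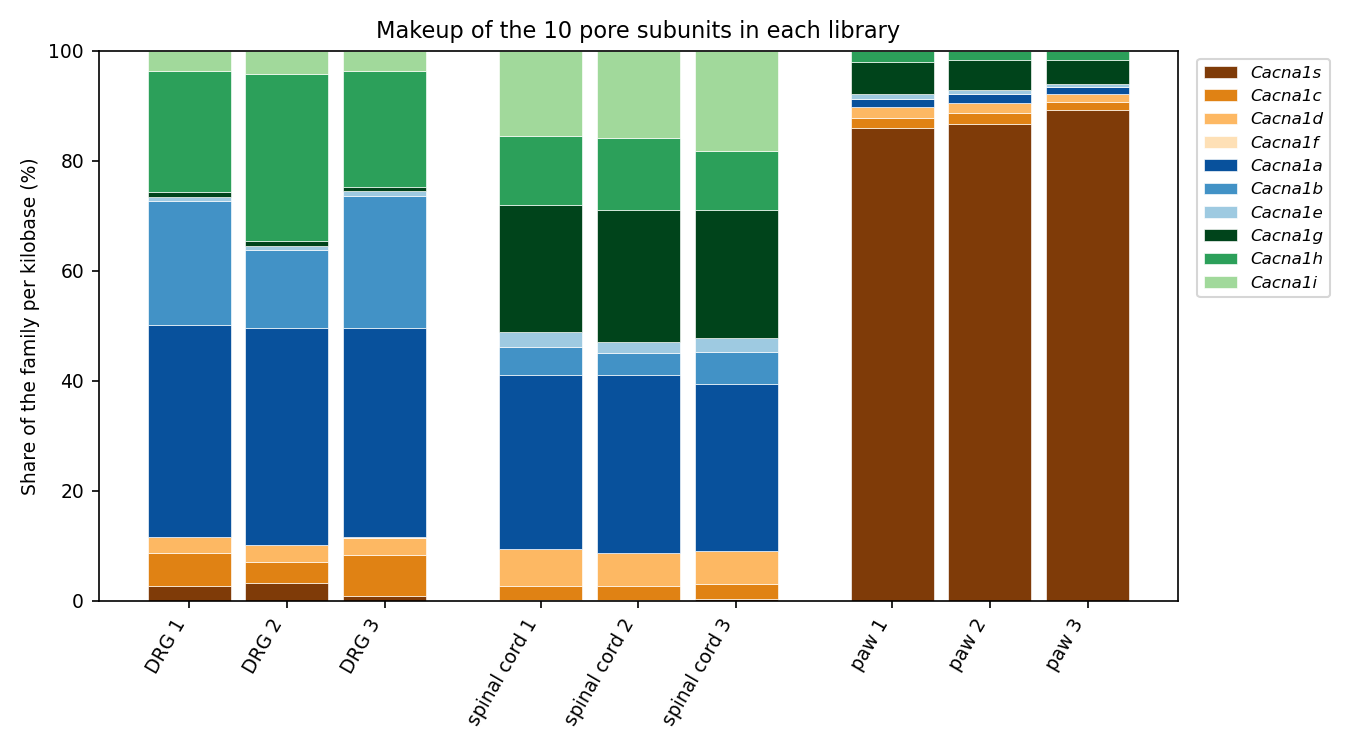
Share of each pore subunit in the summed CPM per kilobase of the 10 members (y axis, percent), with 1 stacked bar for each of the 9 libraries. Brown to orange are Cav1, blue are Cav2 and green are Cav3 genes; Cacna1s fills 85.9 to 89.2% of the paw bars, and Cacna1a is the largest single share in DRG and spinal cord.

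In DRG, Cacna1a held 38.7 ± 0.708% of the family, followed by Cacna1h with 24.5 ± 5.06% and Cacna1b with 20.2 ± 5.21% (SD, n = 3). The shares of Cacna1h and Cacna1b overlapped between libraries: Cacna1h led in DRG 2 and Cacna1b led narrowly in DRG 1 and DRG 3. Behind them came Cacna1c with 5.74%, Cacna1i with 3.86%, Cacna1d with 3.06% and Cacna1s with 2.27%, and the ranges of Cacna1c and Cacna1i overlapped, as did those of Cacna1d and Cacna1s. Cacna1g with 0.832% and Cacna1e with 0.805% overlapped as well, and Cacna1f held 0.0341%.

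In spinal cord, Cacna1a again held the largest share, 31.5 ± 0.951%, followed by Cacna1g with 23.5 ± 0.445%, Cacna1i with 16.5 ± 1.46% and Cacna1h with 12.1 ± 1.18% (SD, n = 3). None of these 4 overlapped its neighbour in the order. Cacna1d held 6.20%, Cacna1b 4.93%, Cacna1c 2.54%, Cacna1e 2.48%, Cacna1s 0.268% and Cacna1f 0.0318%, and only Cacna1c and Cacna1e overlapped among these.

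In paw, Cacna1s held 87.3 ± 1.73% of the family and Cacna1g 5.24 ± 0.659% (SD, n = 3). Cacna1c, Cacna1d, Cacna1h and Cacna1a followed with 1.81, 1.75, 1.73 and 1.48%, and these 4 were not separated, since each overlapped the next. Cacna1e held 0.629%, Cacna1i 0.0860% and Cacna1b 0.0250%, the last pair overlapping, and Cacna1f had no reads.

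**Figure D2:**
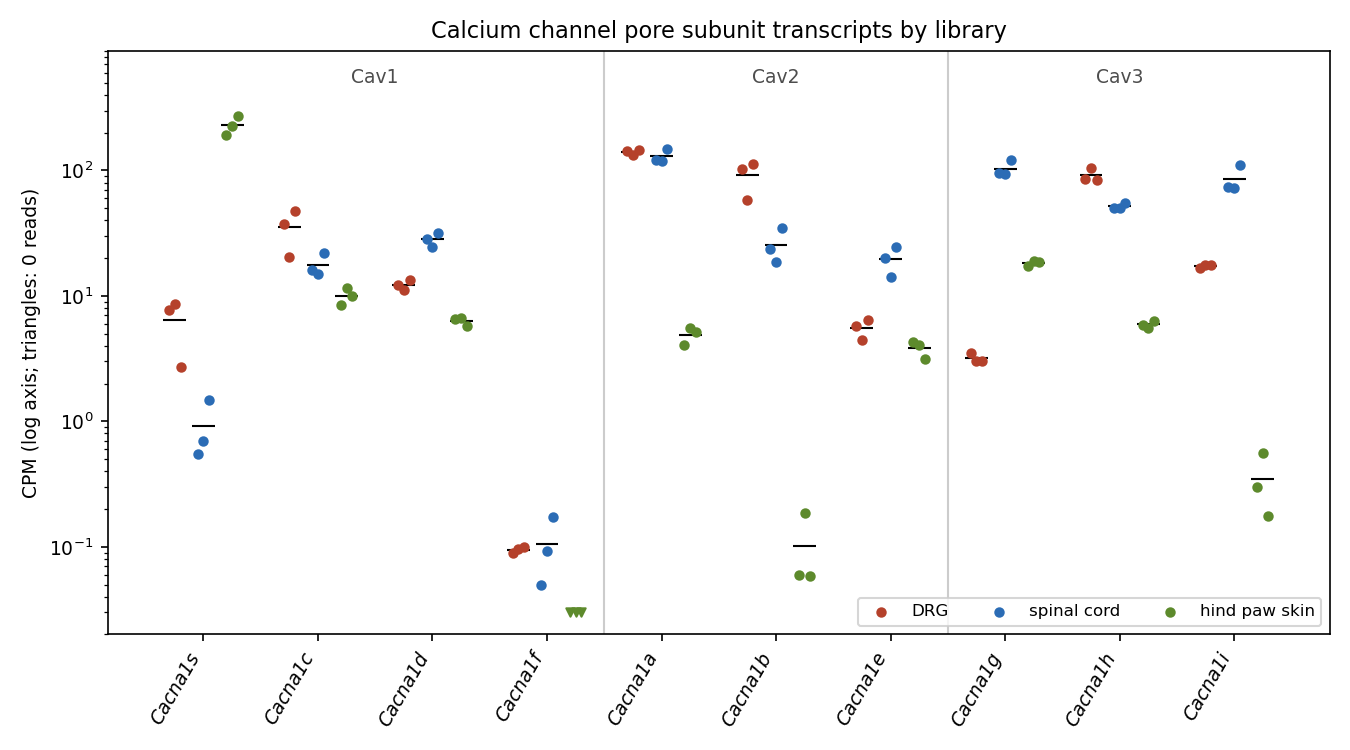
CPM of each pore subunit (log y axis) in the 3 libraries of DRG, spinal cord and hind paw skin; dots are libraries, black lines are means, and triangles mark libraries with 0 reads. Cacna1s is highest in paw, Cacna1g and Cacna1i are highest in spinal cord, and Cacna1b spans from 5 reads in all of paw to 113 CPM in DRG 3.

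Differences between tissues were tested for each gene with edgeR's quasi-likelihood test on the counts of all 9 libraries, with p-values adjusted by Benjamini-Hochberg over the 16091 genes that passed the filter on low counts, and a gene was called at an adjusted p under 0.05. Of the 10 members, 9 passed the filter and Cacna1f did not. Between DRG and spinal cord, 4 members were higher in DRG (Cacna1b, Cacna1c, Cacna1h and Cacna1s), 4 were lower (Cacna1d, Cacna1e, Cacna1g and Cacna1i) and Cacna1a was not called, while 59.6% of all genes tested were called, 29.0% higher and 30.6% lower. Between paw and DRG, 2 members were higher in paw (Cacna1g and Cacna1s) and 6 were lower, beside 80.5% of all genes called, 39.7% higher and 40.8% lower. Between paw and spinal cord, 1 member was higher in paw (Cacna1s) and 8 were lower, beside 81.6% of all genes called, 39.9% higher and 41.7% lower. The CPM ranges of DRG and spinal cord did not overlap for 7 of the 9 members tested, beside 64.5% of all genes. Those of paw and DRG did not overlap for 9 of 9, beside 83.4%, and those of paw and spinal cord for 9 of 9, beside 83.5%. With most genes called, a call alone set no member apart, and the sizes and directions below carry the account. The 3 comparisons share libraries, so their values are given side by side and not as separate evidence.

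**Figure D3:**
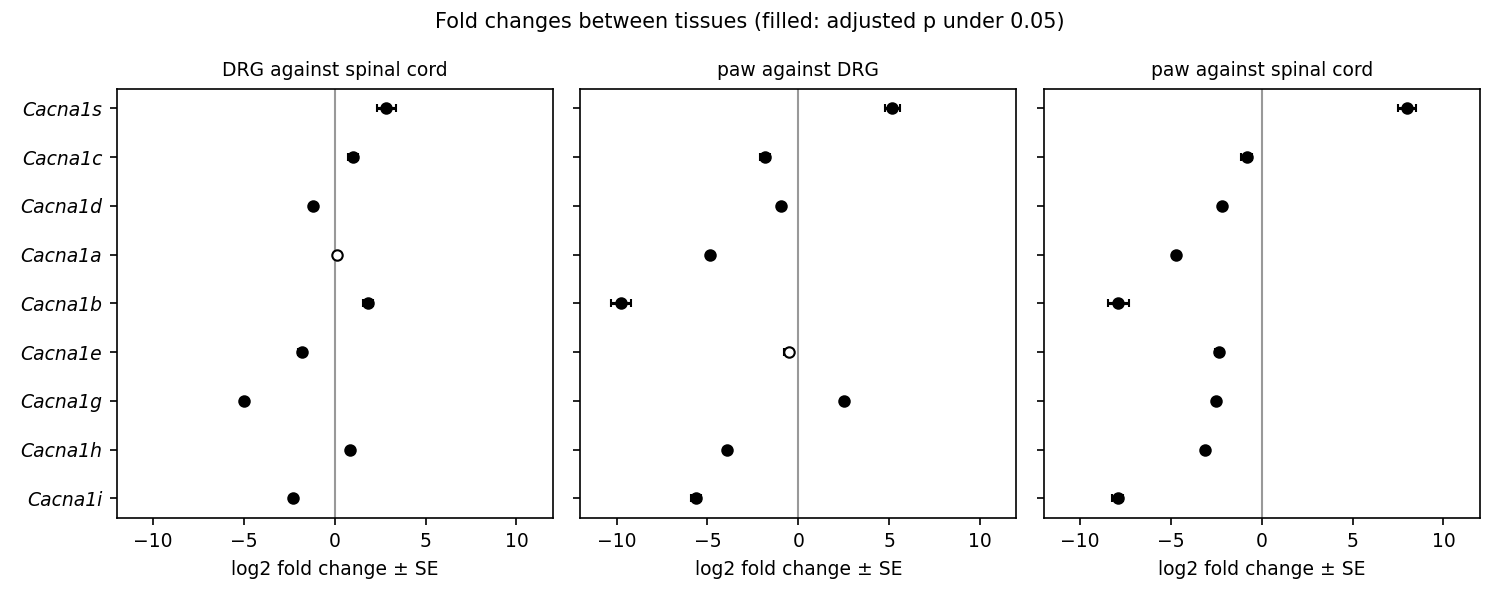
Log2 fold change with its standard error (x axis) for the 9 members tested, in DRG against spinal cord, paw against DRG and paw against spinal cord; positive values are higher in the first-named tissue, and filled points have an adjusted p under 0.05. Open points are Cacna1a between DRG and spinal cord and Cacna1e between paw and DRG.

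Among the Cav2 genes, Cacna1a was the one with like levels in both neural tissues. Its level was 144, 132 and 147 CPM in the DRG libraries, 122, 120 and 150 CPM in the spinal cord libraries, and 4.07, 5.55 and 5.12 CPM in the paw libraries. DRG and spinal cord overlapped, and all paw libraries were far lower. The log2 fold change of DRG against spinal cord was 0.11 ± 0.11 (SE; 95% interval -0.14 to 0.36; adjusted p = 0.431 with edgeR), so a difference within that interval was not resolved with 3 libraries each. Paw was lower than DRG at a log2 fold change of -4.84 ± 0.14 and lower than spinal cord at -4.73 ± 0.14 (adjusted p = 5.61e-11 and 5.77e-11 with edgeR). The summed neuron genes given above were low in paw too, and their part in the paw differences of the members was not tested.

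Cacna1b, the N-type subunit, was the Cav2 gene called higher in DRG than in the cord. Its level was 103, 58.4 and 113 CPM in the DRG libraries and 23.5, 18.6 and 34.7 CPM in the spinal cord libraries. In paw it had 1, 3 and 1 reads. DRG 2 was the lowest DRG library and spinal cord 3 the highest spinal cord library, and no tissue overlapped another. The log2 fold change of DRG against spinal cord was 1.84 ± 0.28 (adjusted p = 0.000409 with edgeR). It was 1.64 to 2.13 when 1 library at a time was left out. Without both spinal cord 3 and DRG 2 it was 2.37, a rise that leaving out these extremes of the gene had to give. The same libraries stood out in other genes: Scn10a was lowest among DRG in DRG 2, at 789 CPM, and 8 Schwann and satellite glia genes summed to 6426 CPM in spinal cord 3 against 2381 and 2574 CPM in the other spinal cord libraries, 15610 to 20660 CPM in DRG and 651 to 775 CPM in paw, with none of the 8 at 0 in any library. The 14 sensory neuron markers summed to 6650 CPM in DRG 2, within the 5863 to 6908 CPM of the DRG libraries. Whether these play a part in the Cacna1b difference was not tested.

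With 5 Cacna1b reads in all of paw, the ratio to paw was bounded by counting. It was 914 in DRG (95% interval 392 to 2817) and 250 in spinal cord (95% interval 107 to 770), the intervals covering counting error only. The fitted log2 fold changes, -9.74 ± 0.54 against DRG and -7.90 ± 0.58 against spinal cord (adjusted p = 1.19e-07 and 8.33e-07 with edgeR), turned on those few reads: without paw 2, which held 3 of them, they were -10.43 and -8.58.

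Cacna1e, the R-type subunit, had its highest levels in spinal cord. It had 5.72, 4.49 and 6.44 CPM in DRG, 20.1, 14.3 and 24.5 CPM in the cord and 4.31, 4.07 and 3.12 CPM in paw. All spinal cord libraries lay above all others, and DRG lay just above paw without overlap. DRG was lower than spinal cord at a log2 fold change of -1.82 ± 0.22 and paw was lower than spinal cord at -2.35 ± 0.23 (adjusted p = 2.24e-05 and 1.41e-06 with edgeR). The difference of paw from DRG, -0.53 ± 0.23, missed the threshold (adjusted p = 0.0531 with edgeR) and passed it in 6 of 18 alternative settings, with adjusted p from 0.015 to 0.172 over all of them.

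Among the Cav1 genes, Cacna1c and Cacna1d encode the L-type channels of neurons, heart and smooth muscle, and they differed in opposite directions between DRG and spinal cord. Cacna1c had 37.6, 20.5 and 47.7 CPM in DRG, 16.2, 14.8 and 22.0 CPM in the cord and 8.44, 11.5 and 9.95 CPM in paw. The lowest DRG library, DRG 2, lay below spinal cord 3, and all paw libraries were below all others. The log2 fold change of DRG against spinal cord was 1.00 ± 0.28 (adjusted p = 0.0125 with edgeR), and without spinal cord 2 it was 0.88 with an adjusted p of 0.0524. Paw was lower than DRG at -1.82 ± 0.30 (adjusted p = 0.000268). Paw against spinal cord gave -0.83 ± 0.30 (adjusted p = 0.0268 with edgeR), a call that was lost without spinal cord 3 (-0.60), paw 1 (-0.73) or paw 3 (-0.82), with adjusted p of 0.106, 0.0995 and 0.0726.

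Cacna1d had 12.2, 11.2 and 13.3 CPM in DRG, 28.4, 24.4 and 31.7 CPM in the cord and 6.53, 6.60 and 5.71 CPM in paw. The tissues did not overlap, and the spread within each was small. DRG was lower than spinal cord at a log2 fold change of -1.20 ± 0.13, paw was lower than DRG at -0.96 ± 0.14, and paw was lower than spinal cord at -2.16 ± 0.14 (adjusted p = 9.00e-06, 4.28e-05 and 2.89e-08 with edgeR). The overlapping gene Chdh ran differently, with 76.6, 40.4 and 54.5 CPM in DRG, 18.9, 18.3 and 36.5 CPM in the cord and 45.7 to 50.6 CPM in paw.

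Among the 9 members tested, the Cav3 gene Cacna1g had the largest difference between DRG and spinal cord. Cacna1g, which encodes Cav3.1, had 3.53, 3.04 and 3.02 CPM in DRG, 94.7, 94.2 and 121 CPM in the cord and 17.4, 19.0 and 18.6 CPM in paw. All paw libraries lay between the other tissues, and none overlapped. DRG was lower than spinal cord at a log2 fold change of -5.01 ± 0.14, a 32.1-fold difference that ranked 438 by size among the 16091 genes tested (adjusted p = 3.49e-10 with edgeR). Cacna1g was the only member besides Cacna1s whose paw level exceeded that of DRG, by 2.51 ± 0.14 (adjusted p = 8.19e-09), and paw was lower than spinal cord at -2.49 ± 0.12 (adjusted p = 2.49e-09).

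Cacna1h, which encodes Cav3.2, ran the other way. It had 85.9, 105 and 84.4 CPM in DRG, 50.1, 50.3 and 55.0 CPM in the cord and 5.87, 5.55 and 6.36 CPM in paw. The tissues were well separated. DRG was higher than spinal cord by a log2 fold change of 0.83 ± 0.10 (adjusted p = 3.92e-05 with edgeR), and paw was lower than DRG at -3.95 ± 0.12 and lower than spinal cord at -3.13 ± 0.12 (adjusted p = 8.37e-11 and 4.09e-10). In DRG 2, Cacna1h was at its highest while Cacna1b and Cacna1c were at their lowest.

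Cacna1i, which encodes Cav3.3, had 16.6, 17.6 and 17.6 CPM in DRG and 73.5, 72.7 and 110 CPM in the cord, and in paw it had 5, 9 and 3 reads. Spinal cord 3 stood above the other spinal cord libraries, and no tissue overlapped another. DRG was lower than spinal cord at a log2 fold change of -2.30 ± 0.18 (adjusted p = 6.99e-07 with edgeR). Over the 17 reads in paw, the ratio to paw was 50.6 in DRG (95% counting interval 31.5 to 87.2) and 247 in spinal cord (95% counting interval 154 to 424).

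Cacna1b and Cacna1i shared near absence from paw, and Cacna1s was the member most abundant there. Their upstream sequences are shown to set these opposite patterns side by side, from RefSeq with build GRCm38.p6, each ending at the first annotated transcript start in the window. Capitals mark E-boxes (CANNTG, the site bound by muscle and neuronal basic helix-loop-helix factors) and GC boxes (GGGCGG, or CCGCCC on the other strand).
Cacna1b, chr2:24763201-24763402, minus strand: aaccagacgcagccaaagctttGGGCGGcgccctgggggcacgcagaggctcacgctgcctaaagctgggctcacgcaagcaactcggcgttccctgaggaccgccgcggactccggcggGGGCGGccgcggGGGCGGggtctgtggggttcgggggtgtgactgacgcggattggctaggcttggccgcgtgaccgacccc
Cacna1i, chr15:80286988-80287237, plus strand: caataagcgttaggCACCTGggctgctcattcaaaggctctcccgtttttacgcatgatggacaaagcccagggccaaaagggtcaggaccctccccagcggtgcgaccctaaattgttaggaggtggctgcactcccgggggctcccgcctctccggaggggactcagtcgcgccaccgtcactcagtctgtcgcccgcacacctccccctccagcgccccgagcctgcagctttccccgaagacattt
Cacna1s, chr1:136052561-136052749, plus strand: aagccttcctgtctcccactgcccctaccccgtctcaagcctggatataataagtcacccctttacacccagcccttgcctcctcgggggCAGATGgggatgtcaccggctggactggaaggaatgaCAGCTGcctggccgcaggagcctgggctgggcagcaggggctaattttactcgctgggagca
In the full 250-base windows, Cacna1b held 3 GC boxes and 29 CpG dinucleotides, more CpG than 93.2% of the 32851 windows of all genes. Cacna1i held 16 CpG and Cacna1s 9. Cacna1s held 2 E-boxes, 1 of them CAGCTG, and 1 GC box, and Cacna1b and Cacna1i held 1 E-box each. The E-box of Cacna1b, also CAGCTG, and the GC box of Cacna1s lie in the stretch of the window after the printed bases. E-boxes occurred in 66.2% of all windows, GC boxes in 32.7% and CAGCTG in 13.0%, so these matches are common and are given as descriptions only. Promoters of 7 of the 10 members were in the table.

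Cacna1s, the L-type channel of skeletal muscle and the voltage sensor that opens the Ryr1 calcium release channel, was the most abundant member in paw. It had 191, 228 and 273 CPM in paw, 7.73, 8.69 and 2.72 CPM in DRG, and 0.550, 0.700 and 1.49 CPM in spinal cord. The tissues did not overlap, and DRG 3 lay apart from DRG 1 and DRG 2, closer to spinal cord. Paw was higher than DRG by a log2 fold change of 5.17 ± 0.41 and higher than spinal cord by 8.01 ± 0.50, and DRG was higher than spinal cord by 2.84 ± 0.52 (adjusted p = 2.99e-06, 5.91e-07 and 0.0016 with edgeR).

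Skeletal muscle transcripts were ordered like Cacna1s between tissues, paw above DRG 1 and DRG 2 and these above spinal cord, but not within spinal cord, where the library with the most Cacna1s had the least muscle sum. DRG 3 had a muscle sum within the range of spinal cord and more Cacna1s than any spinal cord library. The summed level of 11 skeletal muscle genes (the marker list without Pvalb, which proprioceptive neurons express) was 18970, 22600 and 25330 CPM in paw, 727, 1133 and 45.0 CPM in DRG, and 75.3, 23.2 and 20.3 CPM in spinal cord. All 12 genes of the marker list were higher in paw than in DRG and than in spinal cord, and 10 of 12 were higher in DRG than in spinal cord. The only marker at 0 was Myh2, in spinal cord 3. Acta1, skeletal muscle actin, had 132, 227 and 8.42 CPM in DRG, 3.90 to 14.5 CPM in the cord and 2268 to 3910 CPM in paw. Per 1000 CPM of muscle genes, Cacna1s stood at 10.1, 10.1 and 10.8 CPM in paw, and at 10.6 and 7.67 CPM in DRG 1 and DRG 2. It stood at 60.6 CPM in DRG 3, and at 7.30, 30.2 and 73.5 CPM in spinal cord. Without DRG 1 and DRG 2, the log2 fold change of DRG against spinal cord was 1.61 (adjusted p = 0.0188 with edgeR, the lone DRG library being assumed to vary like the other groups), and that of paw against DRG was 6.39. The part of muscle tissue in the Cacna1s differences was not tested.

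**Figure D4:**
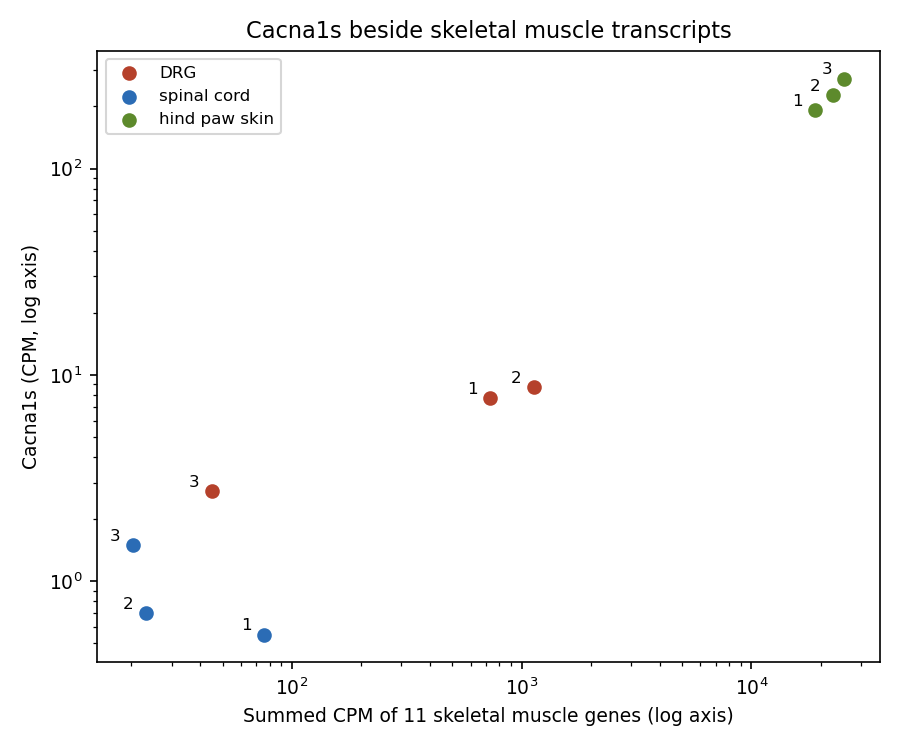
Cacna1s (y axis, CPM, log axis) against the summed CPM of 11 skeletal muscle genes (x axis, log axis) in the 9 libraries, numbered within each tissue. The paw libraries lie at the upper right, DRG 1 and DRG 2 lie in between, and DRG 3 lies near the spinal cord libraries.

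Cacna1f, the L-type channel of photoreceptors, was close to absent. It had 2 reads in each DRG library, 1, 2 and 3 reads in spinal cord, and 0 reads in each paw library, where 3 reads over the group, taken as the floor, equal 0.0601 CPM. It did not pass the filter on low counts. Without that filter (19104 genes tested) it was called lower in paw than in DRG and than in spinal cord (adjusted p = 0.0284 and 0.0246 with edgeR) and was not called between DRG and spinal cord (adjusted p = 0.96), on these few reads.

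Ratios of 2 members within 1 library do not depend on how libraries were scaled, and they gave the contrast between tissues in a compact form; they are ratios of reads and not per length. The ratio of Cacna1h to Cacna1g reads was 28.4 in DRG, 0.505 in the cord and 0.325 in the paw (geometric means of 3 libraries), with log2 ratios of 4.6, 5.10 and 4.79 in DRG, -0.92, -0.91 and -1.13 in the cord, and -1.56, -1.77 and -1.54 in paw. The Cacna1h to Cacna1g balance thus turned over between DRG and the other tissues in every library. The ratio of Cacna1a to Cacna1b was 1.60 in DRG, 5.25 in the cord and 41.0 in the paw, and the ratio of Cacna1d to Cacna1c was 0.368 in DRG, 1.61 in the cord and 0.635 in the paw. In each of the 9 comparisons the libraries of the tissues did not overlap. Each gave p = 0.1 in a two-sided exact permutation test, the smallest that 3 against 3 libraries can give, and p = 0.1 after adjustment over the 9 comparisons, so none could reach 0.05.

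**Figure D5:**
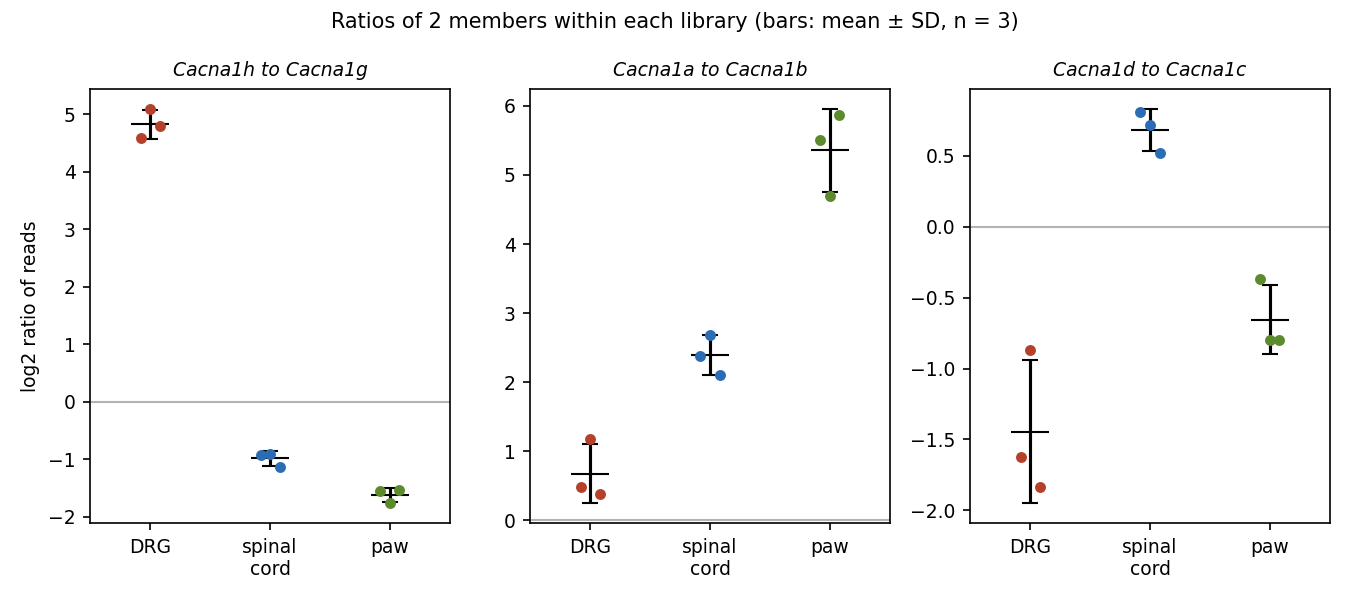
Log2 ratio of reads of Cacna1h to Cacna1g, Cacna1a to Cacna1b and Cacna1d to Cacna1c (y axes) within each library of DRG, spinal cord and paw; dots are libraries and bars are the mean ± SD of 3. Cacna1h has more reads than Cacna1g in DRG alone, and Cacna1d has more reads than Cacna1c in spinal cord alone.

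The subunits that assemble with the pore were described by counts of called genes and by the median log2 fold change, beside medians of -0.02, -0.02 and -0.03 over all genes tested for DRG against spinal cord, paw against DRG and paw against spinal cord. Of all genes tested, 59.6%, 80.5% and 81.6% were called in these comparisons, with 29.0%, 39.7% and 39.9% higher and 30.6%, 40.8% and 41.7% lower, so the share of a partner list that was called says little by itself. Partner differences given with ± are log2 fold changes with their SE. The alpha2delta subunits carry channels to the membrane, and Cacna2d1 and Cacna2d2 bind gabapentin; the beta subunits fold the pore for export. Of these 8 genes, 2 were higher and 5 lower in DRG than in spinal cord (median -0.44), 1 was higher and 6 lower in paw than in DRG (median -2.31; 7 of 8 called, near the share over all genes), and 1 was higher and 6 lower in paw than in spinal cord (median -2.36). Cacnb3, a beta subunit, had 307, 400 and 348 CPM in DRG against 46.7 to 56.7 CPM in spinal cord, a log2 fold change of 2.75 ± 0.12 (adjusted p = 4.91e-09 with edgeR). Cacna2d1 had 155, 167 and 168 CPM in DRG, 57.2 to 58.2 CPM in the cord and 87.9 to 147 CPM in paw. DRG exceeded the cord by 1.50 ± 0.15 and the paw exceeded it by 1.05 ± 0.15 (adjusted p = 6.51e-06 and 4.87e-05).

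Other partners were highest in spinal cord. Cacnb2 was lower in DRG at -2.85 ± 0.14 (adjusted p = 1.71e-08 with edgeR), with 3.53 to 4.11 CPM in DRG and 23.7 to 30.4 CPM in the cord. Cacna2d4 was lower in DRG at -3.97 ± 0.41, was higher in the paw than in DRG by 3.17 ± 0.44, and reached at most 2.80 CPM in any library. Cacna2d2 and Cacna2d3 had the largest falls in paw, -6.65 ± 0.16 and -5.12 ± 0.15 against DRG and -7.93 ± 0.17 and -5.51 ± 0.16 against spinal cord (adjusted p at most 6.14e-11 with edgeR). Cacnb1, the beta subunit of the skeletal muscle channel and also of neuronal ones, was level, with 39.5 to 57.7 CPM over the 9 libraries and no call in any comparison.

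The gamma subunits and the related TARP proteins, most of which escort AMPA receptors and not calcium channels, were mostly lower outside spinal cord. Of 8 genes, 1 was higher and 5 lower in DRG than in spinal cord (median -1.83), and 2 were higher and 6 lower in paw than in DRG (median -5.29) and than in spinal cord (median -6.49). The 2 higher in paw were Cacng1 and Cacng6. Cacng1, the gamma subunit of the skeletal muscle channel, had 34.7, 63.6 and 72.3 CPM in paw, 0.536, 1.88 and 0.248 CPM in DRG, and 0.0574 to 0.300 CPM in spinal cord. Among the DRG libraries both Cacng1 and Cacna1s were highest in DRG 2. Cacng1 was higher in the paw than in DRG by 5.99 ± 0.54 (adjusted p = 7.89e-06 with edgeR), and was not called between DRG and spinal cord (adjusted p = 0.0839). Cacng6 had 8.56 to 12.8 CPM in paw and 0 reads in spinal cord. Its call between DRG and spinal cord rested on 0.223, 0.579 and 0 CPM in DRG and was lost in limma-voom and in each fit without DRG 1, DRG 2 or any 1 spinal cord library. Cacng3 and Cacng8 had 17.1 to 22.6 and 8.44 to 11.1 CPM in spinal cord and 0 reads in paw, and were lower in DRG than in the cord at -4.05 ± 0.23 and -4.24 ± 0.30. Cacng5 was lower in paw than in DRG at -7.19 ± 0.26.

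Among 17 regulators of the channels, 4 were higher and 5 lower in DRG than in spinal cord (median -0.18), 3 were higher and 13 lower in paw than in DRG (median -3.47), and 4 were higher and 13 lower in paw than in spinal cord (median -2.00). Stac, an adaptor protein that binds L-type channels, had 64.6, 72.5 and 69.3 CPM in DRG and 7.06 to 8.26 CPM in the cord, a log2 fold change of 3.20 ± 0.13 (adjusted p = 3.69e-09 with edgeR). Rem2, a small GTPase that inhibits the channels, was higher in DRG by 2.24 ± 0.20 (adjusted p = 2.35e-06). Stac3, the muscle adaptor that Cacna1s needs to reach the membrane, had 35.7 to 61.2 CPM in paw and 2.41 to 4.31 CPM elsewhere, and was higher in the paw than in DRG by 4.00 ± 0.23 (adjusted p = 2.10e-08). Gem, a GTPase of the same family as Rem2, was higher in the paw than in DRG by 2.87 ± 0.24 (adjusted p = 4.00e-07). Against spinal cord the paw values were 3.81 ± 0.23 for Stac3 and 1.86 ± 0.22 for Gem. Klhl1, an actin-binding protein reported to modulate calcium currents, had 24.1 to 25.5 CPM in spinal cord, 1.03 to 1.34 CPM in DRG and 0 reads in paw, and was lower in DRG than in the cord at -4.40 ± 0.16 (adjusted p = 2.03e-08). Caln1 was lower in DRG at -1.48 ± 0.44 (adjusted p = 0.0156), a call lost without DRG 1 (adjusted p = 0.0573), and was at 0 to 0.123 CPM in paw. Rem1 was not called between paw and DRG (0.24 ± 0.29).

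Genes of the presynaptic proteins that act with Cav2 channels were mostly lower in paw than in both neural tissues, like Cacna1a and Cacna1b. Cacna1e, the other Cav2 gene, was not called between paw and DRG. Levels in paw varied widely, and Vamp2, Vamp1 and Erc1 still had 163 ± 13.6, 115.5 ± 12.7 and 36.4 ± 1.26 CPM there (SD, n = 3). Of 18 genes, none was higher in paw: all 18 were lower in paw than in DRG (median -6.44) and 17 were lower than in spinal cord (median -6.05). Syt1, the calcium sensor for release, had the largest fall, from 193, 175 and 241 CPM in DRG to 0.120 to 0.185 CPM in paw (log2 fold change -10.25 ± 0.23, adjusted p = 1.07e-11 with edgeR). Cplx1, which acts in vesicle fusion, was lower in paw than in DRG at -8.55 ± 0.43. Syt1 and the fusion protein Snap25 were lower in paw than in spinal cord at -9.68 ± 0.23 and -9.36 ± 0.35. Erc1 was the gene not called there (0.09 ± 0.18). Between DRG and spinal cord 8 were higher in DRG and 3 lower (median 0.34), and without spinal cord 2 the number higher was 5. Without spinal cord 3 it was 11, when Rims3, Unc13a and Syt2 were called too (adjusted p = 2.67e-05, 0.0176 and 0.0342 with edgeR). Their log2 fold changes went from 1.86, 0.30 and 0.36 to 4.42, 0.55 and 2.23. Erc1, an active zone scaffold, was higher in DRG by 1.49 ± 0.18, and Stx1a by 1.18 ± 0.15, while Vamp1 was lower at -1.41 ± 0.14. Cplx1 was not called between DRG and spinal cord (-0.58 ± 0.30, adjusted p = 0.124 with edgeR).

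Of 12 genes of excitation-contraction coupling, a list that includes Cacna1s itself, 10 were higher and 1 lower in paw than in DRG (median 4.49) and than in spinal cord (median 6.05). Ryr1 had 601, 692 and 686 CPM in paw. The exception was Fkbp1a, a protein that binds ryanodine receptors and is expressed in many tissues, which was lower in paw than in DRG at -2.11 ± 0.11 (adjusted p = 4.49e-09 with edgeR); its paw value against spinal cord was -1.33 ± 0.10. Trdn and Atp2a1 rose most in paw against spinal cord, by 9.71 ± 0.94 and 9.65 ± 1.51, and Trdn by 6.41 ± 0.72 against DRG. Between DRG and spinal cord 7 were higher and 1 lower (median 1.98), and that count depended on single libraries. Without DRG 1 and DRG 2 the number higher was 2, without spinal cord 3 it was 4, and without DRG 3, when Cacng1 and Jsrp1 were called too (adjusted p = 0.0307 and 0.019), it was 9. Ryr1 had 15.5, 20.6 and 2.48 CPM in DRG and 1.67 to 2.90 CPM in the cord, so that DRG 3 lay within the range of spinal cord. Atp2a1, the calcium pump of fast muscle, went from 4.39 ± 1.22 (adjusted p = 0.0166) to -0.04 (adjusted p = 0.983) without DRG 1 and DRG 2. Trdn went from 3.30 ± 1.19 (adjusted p = 0.0452) to -0.84 (adjusted p = 0.602) and also lost its call when any 1 library other than DRG 3 was left out. Jph1, a junctional membrane protein, was lower in DRG at -0.60 ± 0.20 (adjusted p = 0.022), a call lost without DRG 1, DRG 3, spinal cord 1 or spinal cord 2.

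Of 19 genes of calcium release, entry and extrusion, 4 were higher and 12 lower in DRG than in spinal cord (median -0.64), 8 were higher and 8 lower in paw than in DRG (median 0.02; near the split over all genes), and 6 were higher and 9 lower in paw than in spinal cord (median -0.23). Slc8a1, a sodium-calcium exchanger, had 8.52 ± 0.992 CPM in DRG and 107 ± 3.42 CPM in the cord (SD, n = 3), a log2 fold change of -3.66 ± 0.12 (adjusted p = 6.09e-10 with edgeR). Ryr3, a ryanodine receptor, was lower in DRG at -2.28 ± 0.12, while Itpr3 was higher by 2.08 ± 0.55 and the plasma membrane pump Atp2b1 by 0.79 ± 0.09. Itpr2, an inositol trisphosphate receptor, was higher in the paw than in DRG by 5.13 ± 0.27, and Atp2a3, a calcium pump of the endoplasmic reticulum, by 5.05 ± 0.18. Atp2b2, a plasma membrane calcium pump, was lower in paw than in DRG at -5.85 ± 0.20 (adjusted p = 1.45e-10) and Atp2b3 was at -5.72 ± 0.72. Against spinal cord, the paw values were 4.42 ± 0.18 for Atp2a3, 4.05 ± 0.25 for Itpr2, -7.02 ± 0.20 for Atp2b2 and -6.17 ± 0.72 for Atp2b3. The most expressed genes not called were Atp2b3 between DRG and spinal cord, Atp2a2 between paw and DRG and Atp2b1 between paw and spinal cord.

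Of 9 genes of channels opened by calcium and their subunits, 5 were higher and 2 lower in DRG than in spinal cord (median 0.74), 4 were higher and 5 lower in paw than in DRG (median -1.08), and 4 were higher and 4 lower in paw than in spinal cord (median 0.18). Kcnmb1, a subunit of the large-conductance potassium channel, had 63.8 ± 8.18 CPM in DRG, 3.00 ± 0.672 CPM in the cord and 3.39 ± 0.242 CPM in paw (SD, n = 3), and was higher in DRG than in the cord by 4.41 ± 0.17 (adjusted p = 2.37e-09 with edgeR). Kcnn4, an intermediate-conductance channel, was higher in DRG by 2.96 ± 0.15 (adjusted p = 1.83e-08). Kcnn2 and Kcnn3, small-conductance channels, were lower in DRG at -1.61 ± 0.17 and -1.78 ± 0.23. Ano1, a calcium-activated chloride channel, was not called between DRG and spinal cord and was higher in the paw than in DRG by 2.42 ± 0.14 (adjusted p = 1.57e-08); its paw value against spinal cord was 2.68 ± 0.14. Kcnn3 was higher in the paw than in DRG by 3.65 ± 0.22, and Kcnmb1 and Kcnmb4 were lower there at -4.23 ± 0.17 and -3.62 ± 0.14. Against spinal cord, Kcnn4 was higher in paw by 3.52 ± 0.15, and Kcnn2 and Kcnn1 were lower at -4.41 ± 0.22 and -2.16 ± 0.16.

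For each member, the genes with the nearest pattern over the 9 libraries were those with the smallest root mean square difference of centred log2 CPM, among 15024 genes with a mean of at least 1 CPM. The log2 CPM used a prior count of about 2 reads added to each count, which shrinks differences where reads are few. Cacna1d had the closest neighbour, Agap1, at 0.0944, and Cacna1h had Armcx1 at 0.112 and Ctif at 0.113. Cacna1a was followed by Adam22 at 0.13 and Napb at 0.163, Cacna1c by 1520402A15Rik at 0.149 and Zfp462 at 0.168, and Cacna1e by Adarb1 at 0.199 and Myrip at 0.204. Cacna1g was nearest to Evi2a at 0.239 and Tekt1 at 0.243, Cacna1i to Lrrtm3 at 0.277 and Cdh20 at 0.334, and Cacna1b to D130043K22Rik at 0.419 and Gabbr2 at 0.44. Cacna1s was nearest to Tbx15 at 0.404, to Des, the muscle intermediate filament, at 0.447, and to Trim63, a muscle ubiquitin ligase, at 0.48. The third genes for the others were Ss18l1 at 0.137 after D8Ertd82e at 0.134 for Cacna1d, Cdr2l at 0.143 for Cacna1h, Cdh12 at 0.167 for Cacna1a, Frmd4a at 0.183 for Cacna1c, Nos1ap at 0.215 for Cacna1e, Gm973 at 0.287 for Cacna1g, Dgkk at 0.37 for Cacna1i and 3110047P20Rik at 0.497 for Cacna1b. These are likenesses over 9 libraries of 3 tissues.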

How the data were processed

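The authors deposited whole-number read counts per gene symbol for each library. The libraries were oligo-dT selected, made with a stranded dUTP kit and read as single ends of 50 bases, per the labels' protocols. The mm9 genome, TopHat2, HTSeq and bcl2fastq are named in the submitters' processing notes. No version, annotation or strandedness of the counting is stated there. The summary rows, 42.9 to 59.3% of each file's total, stayed out of library sizes and tests.

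Samples were grouped by tissue label. The main fit took all 9 libraries in edgeR 4.0.16 (R 4.3.3) with tissue as the factor, TMM scaling, filterByExpr, robust glmQLFit, glmQLFTest and 6 residual degrees of freedom, with Benjamini-Hochberg adjustment over 16091 genes. Alternatives, 18 in all, were other scalings, no filter, DESeq2 1.42.0, limma-voom (limma 3.58.1), only the tissues compared, a replicate block and left-out libraries; for the partner lists these were added after seeing the data. Replicate pairs differed by more than sampling noise (chi-square per degree of freedom 7.30 to 36.7), so none was merged. At these depths 3 reads equal 0.134 to 0.185 CPM per library. The intervals of the Cacna1b and Cacna1i ratios to paw cover counting error alone, and PCR copies of a molecule cannot be told apart. The interval of Cacna1a came from the edgeR fit and covers the spread between libraries.

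Lengths and pore sequences came from GENCODE M21 (GRCm38), promoters from RefSeq (GRCm38.p6), and no mm9 coordinate is printed. The members and lists were chosen with earlier results of these data known. All 10 members are named. The 3 genes nearest to each member in pattern are named, and from each partner list the genes with the largest called changes per direction and the most expressed gene not called. Ratios of members used 0.5 added reads. All 211 list genes matched a symbol, 3 of them an older one. Some genes of the partner lists enter the counts and are not reported here by name.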

Additional observations from a re-analysis of the deposited data

How the results depend on the processing

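Over 18 alternative settings no member changed direction in a call. The members higher and lower between DRG and spinal cord numbered 3 to 5 and 4, between paw and DRG 2 and 6 to 8, and between paw and spinal cord 1 and 7 to 9. Besides the Cacna1c and Cacna1e calls given above, Cacna1a passed the threshold between DRG and spinal cord without spinal cord 3 and DRG 2 (0.27, adjusted p = 0.046 with edgeR). These were its highest spinal cord and its lowest DRG library, so leaving them out had to widen the difference. Cacna1f was tested only without the filter on low counts, where it was called lower in paw. With coding length in place of exon length, the Cav1 share moved to 14.2% in DRG and 10.7% in spinal cord, and the Cav2 share moved to 37.3% in spinal cord and 2.65% in paw. Coding length also put Cacna1e above Cacna1g in DRG and above Cacna1c in spinal cord. Upper quartile scaling moved the median of all genes for paw against DRG to 0.10 (log2), beside which no member call changed. Counts of partner genes moved by over 1.5 times only between DRG and spinal cord and in 1 case for paw against spinal cord. The auxiliary genes lower in DRG went from 5 to 3 and the presynaptic genes higher from 8 to 5, the gamma genes higher from 1 to between 0 and 3, the muscle genes higher from 7 to between 2 and 4 (9 without DRG 3) and those lower from 1 to 0, and the presynaptic genes higher in paw than in spinal cord from 0 to 1. A replicate block ended the calls of Cacng6 and Trdn between DRG and spinal cord (adjusted p = 0.057 and 0.0762) and added those of Cacng5, Rims3 and Unc13a (adjusted p = 0.017, 0.0403 and 0.045).

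Libraries of different tissues share replicate numbers, and the labels do not state whether a number marks 1 animal. Same-numbered libraries correlated at -0.11, 0.27 and 0.22 between DRG and spinal cord, and at -0.13 to -0.00 in the other comparisons. Different-numbered libraries correlated at -0.45 to 0.34 between DRG and spinal cord, and at -0.11 to 0.14 in the other comparisons. With only 3 libraries per tissue, each centred on its tissue mean, these values cannot decide whether the numbers pair libraries. A replicate block left the members called at 4 higher and 4 lower, 2 and 6, and 1 and 8, and the ratios of members gave p = 0.25 by exact sign changes, the smallest 3 pairs allow.

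Depth limits Cacna1f in all tissues and Cacna1b and Cacna1i in paw, where few reads were counted. Most reads of the summary rows aligned to several places, at 31.9 to 47.6% of each file's total.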
